A study of Mus musculus with 267 samples.

Results

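The regions described here are 344 open-chromatin regions at which acetylation of histone H3 at lysine 27 (H3K27ac) rose after 24 h of IL-4 in macrophages of 4 or 5 of 5 mouse strains. They were chosen from 29462 regions whose centres could be paired in all 5 strains, out of 67742 regions tabulated for C57BL/6J (C57). A region counted as induced in a strain where the mean of the 24 h libraries plus 1, divided by the mean of the basal libraries plus 1, was at least 2.5 and the larger mean was at least 16 normalized tags. A normalized tag is a sequenced fragment counted in a 1000 bp window, after each library was scaled to 10000000 tags. By this rule 190 regions were induced in all 5 strains and 154 in 4 of them, against 244 regions in 3, 283 in 2, 656 in 1 and 27935 in 0 strains. The H3K27ac values at 24 h and basal therefore chose the regions, and they are given as a description without a test.

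The series held 267 samples of chromatin immunoprecipitation followed by sequencing (ChIP-seq) and inputs from bone marrow-derived macrophages, that is, marrow cells of adult female mice matured in culture with M-CSF. The other strains were SPRET/EiJ, PWK/PhJ, NOD/ShiLtJ and BALB/cJ, named here by their first letters up to the slash (NOD for NOD/ShiLtJ). Cells of the 5 strains were left untreated (basal) or received 20 ng/mL IL-4 for 24 h, and C57 cells also for 1 h or 6 h. PWK and SPRET are wild-derived strains, SPRET of another mouse species. A further set compared macrophages of mice with a floxed Egr2 gene (Egr2flfl) with those that also carried Cre driven from Lyz2, a gene of myeloid cells (LyzMCreEgr2flfl). The loss of Egr2 itself was not checked here. H3K27ac, H3K4me2 and H3K4me3 had 2 libraries for each strain and time, and RNA polymerase II (Pol II) had 2 to 4. The study's methods call the libraries of a group biological replicates, but the labels do not say whether they came from separate animals or cultures, so p-values measure the spread between libraries, which may in part be technical. Each library is a bulk of many cells, in which fewer cells carrying a mark and less of the mark per cell cannot be told apart.

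IL-4 binds a receptor that signals through Janus kinases to STAT6, a transcription factor that then enters the nucleus and binds DNA. The response is known as alternative activation, and its genes include Arg1 and Mgl2. EGR2 is a zinc-finger factor whose gene is itself switched on by IL-4 in macrophages, and PU.1, C/EBPβ and PPARγ are further factors that bind macrophage enhancers. H3K27ac marks active promoters and enhancers, H3K4me2 and H3K4me3 mark enhancers and promoters to different degrees, and Pol II at an enhancer accompanies transcription of the enhancer itself.

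The DNA of 8 of the regions is shown first, because the binding letters discussed later lie in it. The regions are the members nearest Arg1, Slc7a2 and Jak2 (chosen by gene), 4 regions with high H3K27ac folds in every strain, and the region near Vwf with a large Pol II rise. Each sequence holds 200 bases around the centre on the + strand of mm10 and was read from the reference genome. Capitals mark matches on either strand to TTCNNNNGAA (the spacing STAT6 prefers), CGTGGGNG (EGR factors) or TGANTCA (AP-1 factors), where N is any base.
Arg1, chr10:24931561-24931760, 4176 bp upstream of the gene start: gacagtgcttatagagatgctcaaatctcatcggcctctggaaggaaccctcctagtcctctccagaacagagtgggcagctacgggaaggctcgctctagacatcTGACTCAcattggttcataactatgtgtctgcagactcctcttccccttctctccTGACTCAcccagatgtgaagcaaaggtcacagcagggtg
Slc7a2, chr8:40851089-40851288, 11208 bp upstream of the gene start: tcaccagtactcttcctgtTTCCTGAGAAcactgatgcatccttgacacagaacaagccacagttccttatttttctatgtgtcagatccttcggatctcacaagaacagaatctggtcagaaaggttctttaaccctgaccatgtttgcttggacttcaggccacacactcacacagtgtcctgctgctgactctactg
Jak2, chr19:29239593-29239792, 12136 bp upstream of the gene start: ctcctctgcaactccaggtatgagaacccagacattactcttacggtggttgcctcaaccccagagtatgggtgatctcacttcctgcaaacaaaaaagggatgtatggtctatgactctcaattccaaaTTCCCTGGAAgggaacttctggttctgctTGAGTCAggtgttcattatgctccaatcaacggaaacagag
Cish, chr9:107308006-107308205, 12079 bp downstream of the gene start: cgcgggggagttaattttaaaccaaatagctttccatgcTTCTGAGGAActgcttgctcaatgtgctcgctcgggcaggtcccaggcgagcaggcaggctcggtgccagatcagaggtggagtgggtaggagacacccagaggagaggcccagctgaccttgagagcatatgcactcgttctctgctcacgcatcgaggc
Nbas, chr12:13410248-13410447, in intron 32 of 51: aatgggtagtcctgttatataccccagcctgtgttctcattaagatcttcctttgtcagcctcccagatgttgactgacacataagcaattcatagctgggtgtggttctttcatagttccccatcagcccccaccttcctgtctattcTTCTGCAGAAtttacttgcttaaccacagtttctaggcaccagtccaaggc
Anks1, chr17:27968119-27968318, in intron 1 of 24: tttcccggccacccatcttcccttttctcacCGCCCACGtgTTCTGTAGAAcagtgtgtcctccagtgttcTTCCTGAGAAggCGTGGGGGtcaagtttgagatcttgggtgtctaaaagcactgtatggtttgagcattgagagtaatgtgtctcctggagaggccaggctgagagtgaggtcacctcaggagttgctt
Zfp385a, chr15:103317307-103317506, in intron 4 of 7: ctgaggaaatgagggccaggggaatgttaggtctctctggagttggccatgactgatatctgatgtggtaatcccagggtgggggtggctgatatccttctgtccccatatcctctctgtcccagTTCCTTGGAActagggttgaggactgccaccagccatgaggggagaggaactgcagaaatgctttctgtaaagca
Vwf, chr6:125529718-125529917, 16957 bp upstream of the gene start: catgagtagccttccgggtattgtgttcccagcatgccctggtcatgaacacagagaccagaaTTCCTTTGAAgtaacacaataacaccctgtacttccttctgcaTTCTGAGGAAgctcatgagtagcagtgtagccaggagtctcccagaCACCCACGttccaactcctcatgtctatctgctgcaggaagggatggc
The Anks1 sequence held 2 matches of each of the STAT6 and EGR letters, the EGR matches lying on opposite strands. The Arg1 sequence held 2 AP-1 matches and no STAT6 match.

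Most of the regions lay away from gene starts. Of the 344, 165 were in introns (48.0% against 36.9% of the 29462 matched regions), 149 were intergenic (43.3% against 28.6%) and 19 were annotated as promoters (5.52% against 28.9%). The others were 6 gene ends, 2 exons, 2 untranslated regions and 1 non-coding transcript. So the set was largely made of putative enhancers but not entirely. The median distance to the nearest gene start was 29.1 kb, against 9.16 kb for all matched regions, and 50 regions were more than 100 kb away (14.5% against 8.62%). The regions were spread over 19 chromosomes and fell into 295 loci when those within 12.5 kb were joined. In 42 loci 2 or more members stood together, 91 in all, so neighbouring members share tags or a locus and are not independent. The loci with 3 members were nearest Itgax, Inpp5a, Lrrc32, Zfp609, Cyp1b1, Cish and Otos.

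Open chromatin was present at 249 of the 344 regions at both times in C57 (72.4% against 78.5% of all matched regions). At 46 regions it was listed only at 24 h of IL-4 (13.4% against 4.29%), and at 49 only in basal cells (14.2% against 17.2%).

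Before IL-4 the regions carried little H3K27ac, and after 24 h they carried more than the typical matched region. In C57 the median went from 11.7 to 80.4 normalized tags, a median fold of 5.44 per region. The medians went from 12.8 to 75 in BALB (4.46-fold), 14.7 to 87.7 in NOD (4.94-fold), 21.2 to 104.7 in PWK (3.99-fold) and 21.1 to 89.6 in SPRET (3.46-fold). Over all matched regions the medians moved the other way in each strain, from between 70.2 and 75.5 in basal cells to between 49.9 and 65.8. The rule was met by 872 matched regions in C57 (2.96%), 644 in BALB (2.19%), 780 in NOD (2.65%), 629 in PWK (2.13%) and 595 in SPRET (2.02%), and nothing is read from these shares because the rule used them. PWK and SPRET had the highest basal medians and the lowest folds.

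Library by library the same order held. In C57 the member medians were 11.2 and 12.1 tags in the basal libraries and 74.7 and 85.0 at 24 h. In BALB they were 12.49 and 12.51 in the basal libraries, then 93.4 and 51.9. In SPRET they were 17.5 and 24.4, then 99.6 and 79.2. Both 24 h libraries lay above both basal libraries at 339 members in C57, 329 in BALB, 331 in NOD, 320 in PWK and 325 in SPRET. Of all 29462 matched regions the counts were 3286, 2881, 3433, 2956 and 4045, and these libraries are the ones the rule used.

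**Figure D1:**
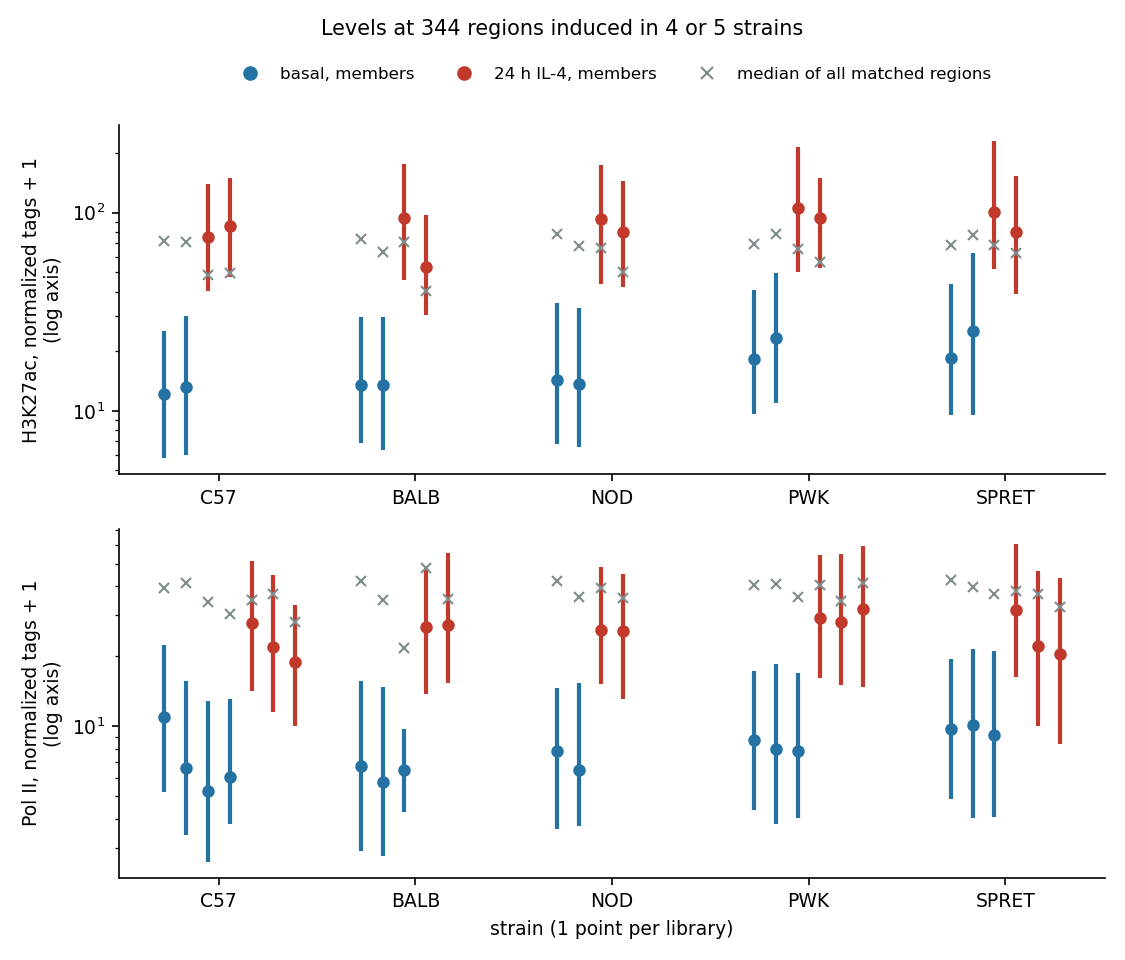
Member levels of H3K27ac (top) and Pol II (bottom) in each library, as normalized tags plus 1 on a log axis. Points are medians over the 344 regions, bars their quartiles and crosses the median of all 29462 matched regions, with basal libraries in blue and 24 h of IL-4 in red. In C57 the member medians for H3K27ac rose from 11.2 and 12.1 to 74.7 and 85.0 tags, while the crosses did not rise with them.

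Of the 154 regions induced in 4 strains, 81 did not pass the rule in SPRET, 40 in PWK, 15 in BALB, 10 in C57 and 8 in NOD. Falling short was often a matter of degree, and for some regions of the minimum level. The 81 regions in SPRET had a median basal level of 35.2 tags and a median 24 h level of 77.8, a median fold of 2.01, and 44 of them still reached a fold of 2. In 14 of the 81 the fold was under 1.5, and in 2 it was under 1. The larger mean was under 16 tags at 15 of the 81, and at 6 of the 40 in PWK. The highest fold among the 81 was 10.6, so not every miss was a small rise. The 40 regions in PWK went from a median of 51.1 to 90.3 tags with a median fold of 2.17, and 1 of them, the Aifm2 intron, had a fold under 1, at 0.62. The members closest to the threshold were regions in Aifm2 (at the fold of 2.5 itself), in an Atg10 intron (2.505) and near Lrrc32 (2.511). Just outside it were regions nearest Etv6 (2.497) and Runx1 (2.495) and a region on the mitochondrial genome (2.491).

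Regions near genes of IL-4 signalling itself were among the members, and 3 of the 4 genes concerned encode inhibitors. Of 13 genes on a list of IL-4 signalling and feedback, 4 had a member within 100 kb: Jak2, Socs1, Socs2 and Cish. JAK2 is a kinase of cytokine receptors, whereas SOCS1, SOCS2 and CIS (the product of Cish) dampen cytokine signalling. There was none near Il4ra, Il13ra1, Il2rg, Jak1, Jak3, Tyk2, Stat6, Irs2 or Socs3.

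At the Jak2 region H3K27ac was 2.04 and 2.14 tags in the basal C57 libraries and 98.46 and 58.41 at 24 h. Over the 10 basal libraries of the 5 strains it ran from 2.04 to 8.58 with a median of 5.02, and over the 10 libraries at 24 h from 42.87 to 130.9 with a median of 68.3. The ranges did not overlap in any of the 5 strains. The rule used these H3K27ac libraries, so their separation here and at the genes below is largely built in and only a description. Around Socs1, the promoter region (987 bp upstream of the start) went from a median of 34.4 tags (3.42 to 153.6) to 283.5 (86.15 to 948.8). At the Cish promoter the median went from 10.8 to 88.0 tags, and at the Socs2 promoter from 10.3 to 30.9. These 3 promoters kept basal and 24 h libraries apart in 5, 5 and 4 strains.

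Cish also had downstream members that were nearly empty before IL-4. At the region 12079 bp downstream of its start the basal C57 libraries held 4.75 and 1.43 tags and the 24 h libraries 89.13 and 89.91. In PWK the values were 8.58 and 3.13, then 142.77 and 148.88, and in SPRET 7.69 and 0, then 111.96 and 23.69. The SPRET libraries at 24 h thus differed from each other more than those of C57 or PWK, though both exceeded the basal ones.

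Of 23 genes of alternative activation, 13 had a member within 100 kb. Mgl2 and Clec10a shared 1 member, as did Pdcd1lg2 and Cd274, while Retnla, Chil3, Chil4, Mrc1, Ccl17, Ccl22, Fn1, Fbp1, Cd36 and Il1rn had none. Arg1 encodes arginase, and Slc7a2 a carrier that brings arginine into the cell. The Arg1 region held 10.18 and 25.67 tags of H3K27ac in the basal C57 libraries and 97.62 and 132.57 at 24 h. In PWK it held 181.97 and 50.11, then 631.01 and 211.87. PWK and SPRET carried more of the mark at Arg1 than C57 at both times, and the basal and 24 h libraries were apart in all 5 strains.

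At the Slc7a2 region the basal C57 libraries held 16.28 and 8.56 tags and the 24 h libraries 200.32 and 158.83. Across strains its basal libraries ran from 8.56 to 80.7 tags (median 32.5) and its 24 h libraries from 98.6 to 624.3 (median 240.5). The promoter region of Mgl2, which encodes a galactose-binding lectin, went from a median of 38.6 tags (1.72 to 81.0) to 161.4 (88.9 to 300.2), and the same region lies 26096 bp from the start of the related Clec10a. The basal and 24 h libraries, which the rule used, were apart in all 5 strains at both regions.

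Tgm2, which encodes a transglutaminase, had a region 32483 bp upstream that went from a median of 4.35 to 27.3 tags. The region in the first intron of Pdcd1lg2, the gene of the checkpoint ligand PD-L2, went from 33.9 to 83.5 tags and also lay within 100 kb of Cd274. Regions near Cdh1 (E-cadherin), Mmp12 (a macrophage elastase), Flt1 (a VEGF receptor) and Tmem26 had 24 h medians from 117.6 to 150.6 tags, against 38.8 to 50.4 in basal cells. The region nearest Hip1, within 100 kb of Ccl24, a chemokine of eosinophils, stayed lower, at 5.12 and then 20.4 tags.

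Members lay within 100 kb of 8 of 19 transcription factor genes listed: Egr2, Klf4, Irf4, Bhlhe40, Batf3, Batf, Cebpb and Atf3. Atf3 was counted through a region 94040 bp from its start, whose nearest gene start was that of Batf3. The Egr2 region, 82 bp upstream of the gene start, went from 7.46 and 5.70 tags to 37.35 and 34.13 in C57, and from 14.53 and 44.12 to 97.86 and 87.23 in SPRET. Irf4 and Batf3 encode factors that pair on DNA in myeloid cells, and their promoter regions went from 19.7 to 54.2 and from 22.7 to 129.4 tags in the median. The basal and 24 h libraries did not overlap in any strain at Egr2 and Batf3, and in 4 strains at Irf4. The promoter region of Bhlhe40, a helix-loop-helix repressor, went from 123.2 to 343.9 tags. The medians went from 6.27 to 58.4 tags at a region 43035 bp from Klf4 and from 5.92 to 35.02 at one 12542 bp from Batf.

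Few of the listed lipid and inflammatory genes had a member nearby. The share of all genes with a member within 100 kb is not given here. The counts of the gene lists therefore show neither an excess nor a lack of such genes. Among 14 lipid genes only Abcg1, a cholesterol exporter, had a member within 100 kb, in its intron 2, with medians of 76.0 and 266.7 tags. Among 12 inflammatory genes it was Ccl2, through a region nearest Ccl11 with medians of 26.6 and 82.1 tags.

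The highest folds held in every strain belonged mostly to regions not yet named. The region at the end of Rmi2, 9137 bp from its start, had a fold of at least 19.8 in each strain, with basal libraries from 2.63 to 14.1 tags and 24 h libraries from 85.1 to 328.4. The Nbas intron had a fold of at least 18.5. Its libraries held 2.04 and 0.71, then 76.39 and 124.04 tags in C57, 0 and 0, then 86.87 and 110.71 in PWK, and 4.27 and 19.1, then 479.59 and 200.31 in SPRET. The Anks1 intron followed with at least 13.1 and the Zfp385a intron with at least 11.1. Because 1 tag was added to each mean, such folds understate the change where the basal level is low. Rmi2 lies close to Socs1 on chromosome 16, within the 100 kb used for the gene lists, and their members were counted as separate regions.

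Pol II was not used to choose the regions and rose with the acetylation. Averaged over the 5 strains, Pol II was higher at 24 h at 313 of the 344 regions and lower at 0 in limma with Benjamini-Hochberg adjustment over all 29462 regions. That is 91.0% of the members, where 7.5% of all matched regions were called higher. The median log2 change was 1.68 at the members and 0.02 over all matched regions. Member values ran from -0.10 at a region nearest Nab1, the only member below 0, to 4.83. The mean change was above 0 in each of the 5 strains at 314 members, compared with 3643 of the 29462 matched regions. The count of members called was 306 to 316 with any 1 library left out.

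The largest Pol II rises included regions downstream of the feedback inhibitors Socs1 and Cish. At the region 4315 bp downstream of the Socs1 start, Pol II went from a median of 10.7 tags (0.76 to 19.2 over 15 basal libraries) to 260.0 (60.0 to 976.2 over 13 libraries at 24 h), a log2 change of 4.83 ± 0.28 (SE, adjusted p = 5.3e-13, limma). Its H3K27ac stayed low, with 24 h libraries between 6.46 and 33.1 tags. The region 7218 bp downstream of the Cish start, at the gene's end, rose by 4.83 ± 0.32 (adjusted p = 5.05e-12), from a median of 1.03 to 61.8 tags. Rmi2 rose by 4.35 ± 0.30 (adjusted p = 9.96e-12), Cish at 12079 bp by 3.67 ± 0.28 and Vwf by 3.53 ± 0.25 (adjusted p = 2.7e-11). At all 5 regions the basal and 24 h libraries of Pol II were apart in every strain, which their choice by the largest Pol II rise favours. Over all members this was so at 181 in C57 to 303 in NOD, against 867 and 4606 of all matched regions.

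At the alternative activation genes described above Pol II rose at each region. The log2 changes were 2.72 ± 0.30 at Arg1 (adjusted p = 1.1e-07, limma), 2.91 ± 0.22 at Mgl2 (adjusted p = 9.03e-11), 3.17 ± 0.33 at Slc7a2 (adjusted p = 2.7e-08) and 2.46 ± 0.34 at Tgm2. Pdcd1lg2 changed by 2.08 ± 0.36 (adjusted p = 0.000112) and the region near Ccl24 by 1.29 ± 0.28 (adjusted p = 0.00131). The Arg1 region showed how unequal single libraries could be. Its C57 values were 24.33, 5.62, 4.29 and 5.06 tags basal and 15.34, 38.68 and 23.09 at 24 h, so the groups overlapped in C57. In SPRET they were 15.48, 33.5 and 11.3, then 128.45, 86.23 and 63.72, without overlap.

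Regions at signalling and transcription factor genes followed. Jak2 rose by 2.42 ± 0.27 (adjusted p = 1.06e-07, limma), from 6.86, 4.01, 2.14 and 7.09 tags to 32.01, 63.26 and 12.83 in C57. The promoter regions of Cish, Socs1 and Socs2 rose by 2.89 ± 0.32, 2.36 and 2.00. Egr2 rose by 1.85 ± 0.20 (adjusted p = 5.5e-08), Bhlhe40 by 2.39, Batf3 by 1.91, Irf4 by 1.78 and Klf4 by 1.68. The Batf region had a change of 0.89 ± 0.37 that was not called (adjusted p = 0.113), with basal and 24 h libraries apart in only 1 strain. With the replicate number as a block, its change was 1.14 and it was called (adjusted p = 0.0022). Other named members that were not called were the Atg10 intron, at 0.48 (adjusted p = 0.347), and the Hectd4 intron, at 0.30 (adjusted p = 0.349).

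Strain by strain, fewer members were called, and the counts moved with single libraries. In C57 136 members were higher (0.988% of all matched regions), in BALB 129 (1.32%), in NOD 45 (0.231%), in PWK 120 (0.91%) and in SPRET 38 (0.258%). Median log2 changes of the members were 1.60, 1.99, 1.75, 1.73 and 1.23 in that order. When a block for the replicate number was added, the counts were 212, 207, 172, 237 and 139. The shares of all matched regions called with the block are not given here. Whether calls also rose over all regions is therefore not shown. In BALB median-ratio scaling, which removed a shift of 0.37 over all matched regions, left 77. Leaving out the C57 libraries at 24 h gave 65 (replicate 1) and 86 (replicate 2), and leaving out BALB 24 h replicate 1 gave 59. In NOD, with 2 libraries a group, each omission gave 7 to 20 members. In PWK the counts were 77 without basal replicate 3, 73 without 24 h replicate 2 and 66 without 24 h replicate 3. In SPRET they were 25 without basal replicate 3 and 15 without 24 h replicate 1.

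The size of the Pol II change could be read without a test. A rise of at least 2.5-fold to at least 8 tags was seen at 188 members in C57 (1.49% of all matched regions), 247 in BALB (5.63%), 211 in NOD (2.19%), 228 in PWK (2.16%) and 144 in SPRET (1.13%). It was seen in all 5 strains at 88 members, in 4 at 78, in 3 at 52, in 2 at 34, in 1 at 42 and in 0 at 50. Over all matched regions the counts were 121, 145, 182, 298, 1388 and 27328. Member medians of Pol II went from 6.55 to 22.9 tags in C57, 5.46 to 25.7 in BALB, 6.64 to 23.2 in NOD, 7.33 to 27.9 in PWK and 8.38 to 24.0 in SPRET. Even at 24 h these lay below the medians of all matched regions, 33.4 to 42.4 tags. One basal library of C57, replicate 1, had a member median of 9.98 tags, where the other 3 had 4.29 to 5.62.

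Where a member fell short of the H3K27ac rule in a strain, its Pol II change there was smaller but usually still upward. Among the 81 members short of the rule in SPRET the median Pol II fold was 1.56, 77 had a higher mean at 24 h and 7 passed the Pol II fold rule. The 263 members past the rule in SPRET had a median of 2.69. In PWK the medians were 2.35 for the 40 members short of the rule and 3.41 for the others. Both marks came from the same table and were normalized the same way, and this comparison was not tested.

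**Figure D2:**
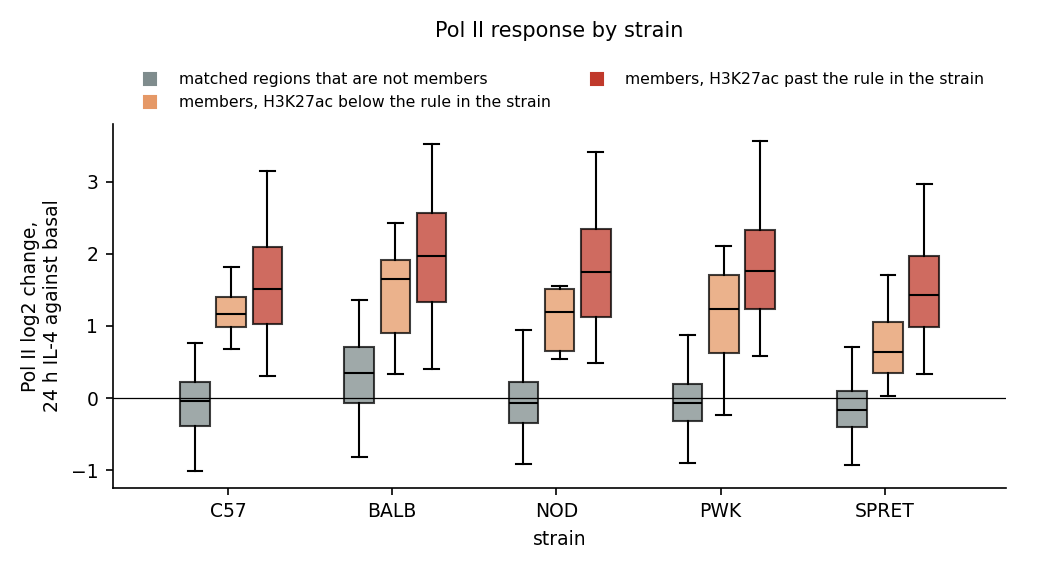
Log2 change of Pol II at 24 h of IL-4 against basal in each strain. Boxes give quartiles with the median and whiskers the 5th to 95th percentile, for matched regions that are no members (grey), members short of the H3K27ac rule in that strain (orange) and members past it (red). In SPRET the orange box, of 81 regions, lies between the grey and the red box, of 263.

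A difference of the Pol II response between strains was not detected at single regions. The test of any difference between the 5 strains called 0 members and 0% of all matched regions in limma, and edgeR and DESeq2 on recovered reads also called 0 members. At an unadjusted p under 0.05 limma had 27 members and 520 of all regions. With the replicate number as a block 1 member was called, at Csf3r (chr4:126003797-126004797, adjusted p = 0.039), a region named after its value was seen. These counts do not show that the strains responded alike.

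Methylation of lysine 4 followed less uniformly than Pol II. H3K4me2 averaged over strains was higher at 161 members and lower at 27, where 1.76% of all matched regions were called higher and 72.2% lower in limma. The medians were 0.33 at the members and -0.53 over all regions on the log2 scale. Because that shift covers all regions, the split depended on scaling, and with median-ratio scaling 277 members were higher and 6 lower, where 5.23% of all regions were higher. The medians were then 0.84 and -0.02. The largest rises were 2.86 ± 0.22 in the Anks1 intron, 2.66 and 2.44 at the regions 12079 and 7218 bp downstream of Cish, and 2.11 at 4315 bp downstream of Socs1. The largest falls were near Bhlhe40 (-1.34), Batf3 (-1.05) and Ralgds (-0.96). Ralgds, like Nab1 above, was named after its value was seen.

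H3K4me3 was called higher at 187 members and lower at 1, the Socs1 promoter region (-0.46, adjusted p = 0.0292, limma). Over all matched regions 3.98% were called higher. The members had a median log2 change of 0.90 against -0.10 over all regions. These changes started from almost no signal, with C57 member medians of 1.34 tags basal and 4.79 at 24 h. When regions with low values were left out, 87 members remained to be tested and 66 were called. The largest rise, 2.78 ± 0.26, was in intron 3 of 25 of Ppfibp2, a region whose nearest gene start is 5330417H12Rik.

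In C57 the acetylation was already under way at 1 h and was near its 24 h level at 6 h. The basal and 24 h libraries here are those that chose the members, so levels and folds against them are a description, and only 1 h and 6 h were compared by a test. The member medians of H3K27ac were 11.8 tags basal, 39.0 at 1 h, 81.7 at 6 h and 79.8 at 24 h. The fold and level of the rule were reached at 161 members at 1 h (46.8%, against 2.31% of the 77955 regions of the time course) and at 289 at 6 h (84.0% against 5.59%). The 1 h libraries disagreed, with member medians of 22.9 and 51.0, and the 6 h libraries had 74.7 and 80.3. Between 1 h and 6 h limma called 0 members and 0% of all regions, and edgeR and DESeq2 called 0 members. At an unadjusted p under 0.05 limma had 157 members. The share of all regions at that limit is not given here, so nothing is read from this count. Without replicate 1 of the 1 h libraries 154 members were called.

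Pol II in C57 also rose by 1 h, but was nearer its 24 h level by then than H3K27ac. Its member medians were 6.58 tags basal, 20.3 in the 1 library of 1 h, 24.0 at 6 h and 23.02 at 24 h. The median fold over basal was 2.51 at 1 h and 2.89 at 24 h for Pol II, and 2.59 and 5.44 for H3K27ac. This contrast was not tested and rests on 1 library of Pol II at 1 h. At 6 h against basal 68 members were higher in limma, where 0.428% of all regions were, and the median log2 change was 1.70 against -0.02. This count rested on single libraries. It was 156 without basal replicate 1, 31 without basal replicate 2, 26 without replicate 3 and 25 without replicate 4. Leaving out the 6 h libraries gave 0 (replicate 1) and 1 (replicate 2).

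STAT6 peaks were found at most of the regions after IL-4. Peaks called by the study from replicate libraries were counted as present where they fell in the 1000 bp window. A C57 STAT6 peak was present at 31.4% of the members in basal cells, at 75.3% after 1 h, 82.6% after 6 h and 93.9% after 24 h (95% exact interval 90.8 to 96.2%, counting error only). For all matched regions the shares were 60.2, 44.1, 48.9 and 65.4%. So members held a peak less often than all regions before IL-4 and more often at each time after it. At 216 members (62.8% against 14.8%) the peak was there at 24 h and not in basal cells.

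The other strains showed the same direction for STAT6. The share of members with a peak went from 12.2 to 73.0% in BALB, 26.5 to 78.8% in NOD, 26.2 to 91.0% in PWK and 41.9 to 89.0% in SPRET. Over all matched regions the 24 h shares were 33.9, 38.8, 56.7 and 58.8%. A STAT6 peak was present at 24 h in all 5 strains at 230 members (66.9% against 25.8%). In SPRET 92.8% of the 263 members past the H3K27ac rule had one, and 76.5% of the 81 that were not. Peak lists differ in how many peaks were called in each strain, and each stands for a group without replicates, so levels between strains were not compared.

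EGR2 and the other factors also gained peaks, by lesser margins over the background. EGR2 peaks in C57 went from 20.9 to 73.6% of the members (21.7 to 55.5% of all matched regions), with 55.2% at 1 h and 44.5% at 6 h. In NOD they did not rise, at 48.8 and 45.6%, while over all regions they were at 44.8 and 32.8%. In BALB, PWK and SPRET the shares went from 54.1 to 67.7%, 9.01 to 39.8% and 26.5 to 68.6%, while all regions went from 51 to 54.5%, 16.2 to 31.3% and 29.2 to 55.4%. PPARγ, a lipid-activated nuclear receptor, went from 7.85 to 71.8% in C57 (13.7 to 54.1% of all regions). C/EBPβ went from 21.5 to 69.8% (31.3 to 50.6%). PU.1, which marks most macrophage enhancers, went from 60.5 to 89.0%, where all matched regions stayed at 83.8 and 84.3%.

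At 24 h the share of members with a peak in all 5 strains was 73.3% for PU.1, 66.9% for STAT6, 39.8% for C/EBPβ, 32.9% for EGR2 and 28.2% for PPARγ. The same shares over all matched regions were 67.7, 25.8, 30.5, 23.7 and 17.1%. In C57 at 24 h 140 members had peaks of all 5 factors (40.7% against 19.7%) and 2 had none. When only the 5000 highest peaks of each C57 list at 24 h were kept, 59.6% of members had a STAT6 peak and 29.9% an EGR2 peak, against 12.9 and 13.99% of all regions.

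**Figure D3:**
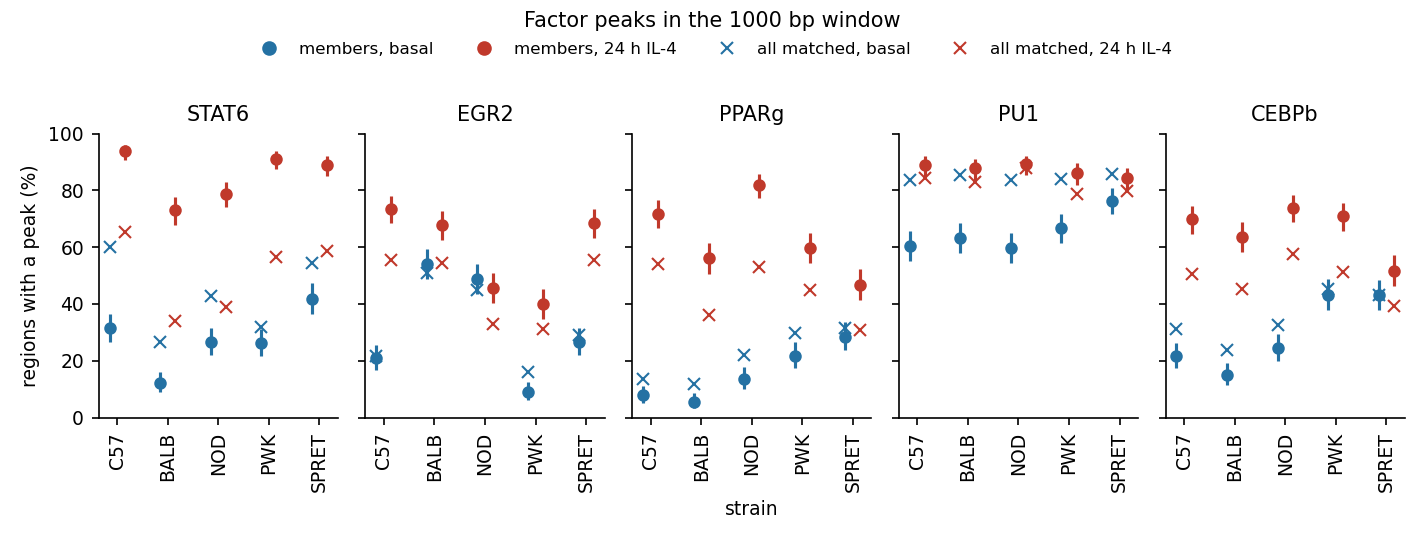
Share of regions with a peak in the 1000 bp window, in percent, for STAT6, EGR2, PPARγ, PU.1 and C/EBPβ in each strain. Circles are the 344 members with 95% exact intervals and crosses all 29462 matched regions, with basal in blue and 24 h of IL-4 in red. For STAT6 in C57 the members go from 31.4 to 93.9% and all regions from 60.2 to 65.4%.

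The STAT6 letters were common in the DNA of the members. TTCNNNNGAA lay within 100 bp of the centre at 128 of the 344 members, or 37.2% (95% exact interval 32.1 to 42.6%), against 4.84% of all matched regions. The share followed the number of strains in which a region was induced. It was 45.8% for 5 strains, 26.6% for 4, 17.6% for 3, 14.8% for 2, 12.5% for 1 and 4.05% for 0. The intervals of 5 and 4 strains (38.6 to 53.2% and 19.8 to 34.3%) did not overlap. Those of 4 and 3 strains overlapped, as did those of 3 and 2 strains, but not those of 4 and 2. The intervals count regions as independent, which neighbouring members are not. The motif is its own reverse complement, so both strands give the same matches. With 3 bases between the same letters, a spacing chosen after seeing the data, the shares were 9.88 and 5.28%.

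**Figure D4:**
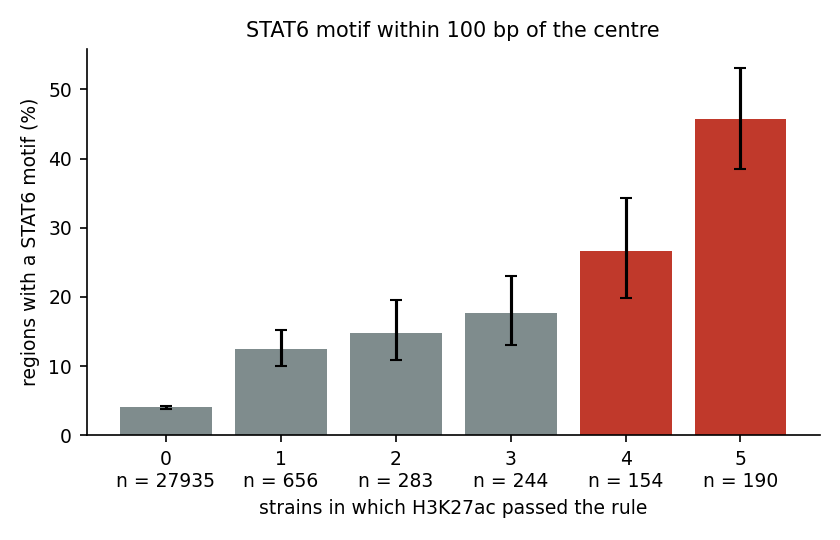
Percent of matched regions with TTCNNNNGAA within 100 bp of the centre, by the number of strains in which H3K27ac passed the rule. Bars start at 0 and lines are 95% exact intervals. The share goes from 4.05% in 0 strains to 45.8% in 5.

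Matches lay at a median of 37.5 bp from the centre in the members and 50 bp over all regions, where 50 bp is also what evenly placed matches in a window of 100 bp each side would give. They lay within 25 bp in 33.6 and 24.3%. Of the 323 members with a C57 STAT6 peak at 24 h, 127 held the motif (39.3%), against 6.30% of all matched regions with such a peak. Of the 21 members without the peak, 1 held it. The share of regions with a peak also followed the number of strains, from 64.4% in 0 strains to 96.3% in 5, but over a narrower range. The Slc7a2, Jak2, Cish, Nbas and Vwf sequences above are examples with the letters, whereas Arg1, Mgl2, Rmi2 and the promoter region of Socs1 had STAT6 peaks in all 5 strains at 24 h without them within 100 bp.

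Letters of other factors were nearer the background. The AP-1 letters TGANTCA lay at 26.7% of members and 16.03% of all regions. The shares were 4.65 and 3.65% for CGTGGGNG (EGR), 9.30 and 10.3% for GAGGAAGT (PU.1), 12.2 and 10.8% for TTGCNNAA (C/EBP) and 0.58 and 0.31% for AGGNCA repeated with 1 base between (PPAR with RXR). Both strands were searched, and the PU.1 letters can overlap a STAT6 match. The median GC content in the window was 50.5% in the members and 54.0% over all regions. Where no match was found, only these letters in this window are meant.

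EGR2 tags were measured over time in C57 at 257 of the members (74.7% against 56.0% of all matched regions). The median there was 25.99 tags basal, 35.9 at 1 h, 66.0 at 6 h and 81.9 at 24 h, against 24.4, 18.1, 30.2 and 38.7 over all EGR2 sites. Libraries of a time differed widely at first, with 13.6 and 55.9 at 1 h and 29.7 and 93.2 at 6 h, and agreed at 24 h with 74.9 and 77.2. At 24 h against basal, 89 of the 257 had an unadjusted p under 0.05 in limma. The share of all sites at that limit is not given here. After adjustment limma called 0 of the 257 and 0% of all sites, while edgeR called 1 and DESeq2 5. The count was 8 without 1 h replicate 1, 12 without 1 h replicate 2, and 5 without either 6 h library.

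The Egr2 genotypes asked which of the regions kept their response without this factor. Their table covers 4677 sites, chosen by the study as EGR2 peaks induced at 24 h of IL-4, and 99 members fell on such sites (28.8% against 4.77% of all matched regions). In Egr2flfl cells H3K27ac rose at 97 of these 99 members at 24 h in limma, where 25.6% of all sites rose. The median log2 change was 2.04 against 0.50. With median-ratio scaling it rose at 80, and with any 1 library left out at 84 to 97.

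In LyzMCreEgr2flfl cells the member levels of H3K27ac were also higher at 24 h than before. The member median went from 24.3 to 121 tags in Egr2flfl and from 19.2 to 88.6 in LyzMCreEgr2flfl, median folds of 4.13 and 3.57. The fold rule was met at 81 and 66 of the 99 (81.8 and 66.7%), against 15.6 and 8.04% of all sites. The mean was higher at 24 h in both genotypes at 96 members (97.0%), against 51.3% of all sites. The rise was the larger one in Egr2flfl at 48 of the 99 (48.5%), against 66.6% of all sites. A test of the difference between the 2 responses called 0 members and 0% of all sites in limma, with 21 members at an unadjusted p under 0.05. The share of all sites at that limit is not given here.

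Compared at 24 h alone, H3K27ac was lower in LyzMCreEgr2flfl at 28 members and higher at 0, where 23.2% of all sites were lower. The median log2 differences were -0.23 at the members and -0.50 over all sites. Since all sites shifted, the direction depended on scaling, and with median-ratio scaling 24 members were higher and 17 lower, at medians of 0.30 and -0.03. Without either 1 of the Egr2flfl libraries at 24 h, 15 members were lower.

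At a few members H3K27ac at 24 h was far lower in LyzMCreEgr2flfl. The Anks1 intron went from 2.56 and 4.75 tags to 116.59 and 93.13 in Egr2flfl, but from 2.01 and 3.36 to only 7.27 and 11.03 in LyzMCreEgr2flfl, a difference at 24 h of -3.40 ± 0.46 (SE, adjusted p = 0.000203, limma). In the Ppfibp2 intron the values were 20.45 and 22.4, then 123.62 and 128.45, against 14.04 and 9.53, then 8.31 and 15.09 (-3.38 ± 0.35, adjusted p = 4.73e-05). In intron 20 of 75 of Hectd4 they were 5.11 and 4.75, then 64.32 and 46.88, against 5.01 and 1.12, then 2.08 and 5.8 (-3.61 ± 0.57, adjusted p = 0.000502). These are the 3 members with the largest falls, and at each of them the 24 h libraries of the genotypes lay far apart. The differences of the response itself did not pass (adjusted p = 0.0870, 0.0839 and 0.167). All 3 had EGR2 peaks in all 5 strains at 24 h, but the sites of this comparison were themselves chosen as EGR2 peaks. The Anks1 sequence is the one above with 2 EGR matches. The Vwf sequence also held an EGR match, and H3K27ac there changed by 3.50 in Egr2flfl and 3.95 in LyzMCreEgr2flfl (log2). Whether the EGR letters bear on these falls was not tested.

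At Cish the region 12079 bp downstream fell only in part, from 204.03 and 166.35 tags at 24 h in Egr2flfl to 101.82 and 75.45 (-1.06 ± 0.30, adjusted p = 0.0181, limma). The region within 100 kb of Cebpb (nearest start Tmem189) had a difference of -1.60 (adjusted p = 0.00925), and the Batf region -1.51 (adjusted p = 0.0448). Other named members were not called. The Arg1 region held 28.97 and 40.05, then 170.86 and 160.56 tags in Egr2flfl, and 34.1 and 24.1, then 152.73 and 135.23 in LyzMCreEgr2flfl (-0.20, adjusted p = 0.611). Jak2 differed by 0.39 (adjusted p = 0.483), Rmi2 by 0.13 (adjusted p = 0.745), Vwf by -0.59 (adjusted p = 0.0877) and Nbas by -1.08 (adjusted p = 0.169).

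**Figure D5:**
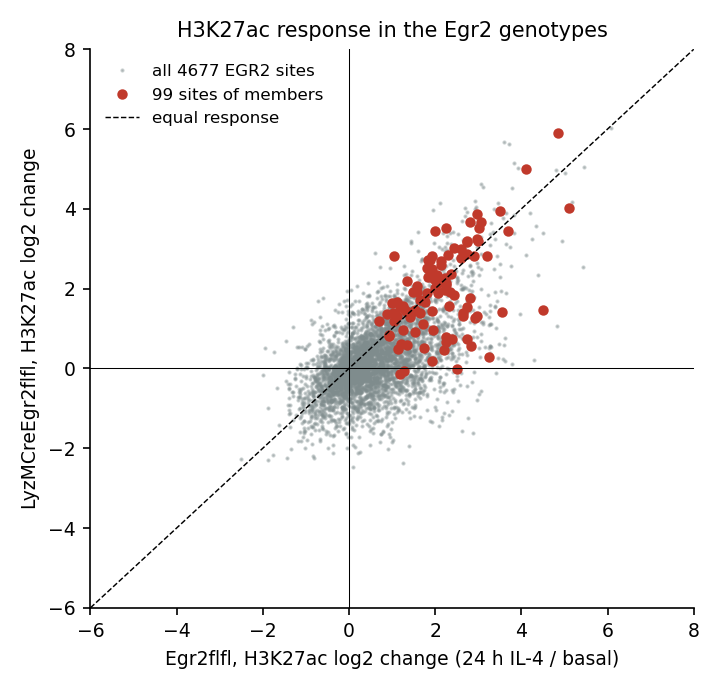
Log2 change of H3K27ac at 24 h of IL-4 in Egr2flfl (horizontal) and LyzMCreEgr2flfl cells (vertical) at 4677 EGR2 sites (grey), with the 99 members in red and a dashed line of equal change. In 96 of the 99 members both changes are above 0, and a few members lie far below the line.

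Binding of other factors at the 99 members was compared in 2 libraries per genotype and time. Medians of STAT6 went from 3.86 to 24.5 tags in Egr2flfl and from 3.05 to 12.5 in LyzMCreEgr2flfl, and those of PPARγ from 2.28 to 27.2 and from 4.26 to 7.11. For PU.1 they went from 27 to 48.8 and from 21.7 to 37.7, and for C/EBPβ from 11.3 to 42.1 and from 6.16 to 15.98. All 4 medians at 24 h were thus lower in LyzMCreEgr2flfl, and so were those over all sites of the table. For all sites they were 7.9 tags in Egr2flfl and 3.75 in LyzMCreEgr2flfl for STAT6, and 8.47 and 2.435 for PPARγ. In the same order they were 15.98 and 10.26 for PU.1 and 16.79 and 5.34 for C/EBPβ. Few of the single members passed a test at 24 h. In limma 0 were lower for STAT6 (0.0214% of all sites, 23 members at an unadjusted p under 0.05, edgeR 3), 0 for PPARγ (0% of all sites, 21 members at an unadjusted p under 0.05), 12 for PU.1 (9.36%) and 5 for C/EBPβ (8.25%). The shares of all sites at an unadjusted p under 0.05 are not given here.

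H3K4me2 was lower at 8 of the 99 members (8.94% of all sites), with medians from 38.6 to 48.5 tags and from 34.1 to 46.5. The PU.1 count was 0 without either Egr2flfl library at 24 h, and 2 and 5 without LyzMCreEgr2flfl replicates 1 and 2. With median-ratio scaling PU.1 was higher at 10 members and lower at 7, so its direction was not fixed. The C/EBPβ count was 0 without either Egr2flfl library or LyzMCreEgr2flfl replicate 2, and 2 without LyzMCreEgr2flfl replicate 1. The H3K4me2 count was 3 and 2 without Egr2flfl replicates 1 and 2, and 4 without LyzMCreEgr2flfl replicate 1.

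At the Arg1 region PPARγ held 38.29 and 0 tags basal and 268.31 and 250.54 at 24 h in Egr2flfl. In LyzMCreEgr2flfl it held 80.92 and 92.77, then 68.82 and 67.18. The log2 difference at 24 h was -1.92 ± 1.51 (SE, adjusted p = 0.537, limma) and was not called. H3K27ac at the Arg1 region, as given above, was nearly as high at 24 h in both genotypes. Pol II, with 1 library for each genotype and time and so without a test, went from a member median of 8.35 to 27.2 tags in Egr2flfl and from 5.85 to 21.3 in LyzMCreEgr2flfl.

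Libraries used here held 4691644 to 29050468 tags, with a median of 12985429, so 1 normalized tag stood for 0.469 to 2.91 reads. At regions of 8 macrophage marker genes (7 in SPRET) the summed H3K27ac was 2820 to 4778 tags in basal cells and 2006 to 2551 at 24 h, lower at 24 h in every strain. None of 5 T cell marker genes had a region in any strain. Of 4 B cell markers 2 had a region in C57 (91 tags basal and 45 at 24 h), and those of 5 neutrophil markers summed to 54 tags in basal C57 cells and up to 347 in SPRET, against 48 and 341 at 24 h. Of 3 dendritic cell markers 1 or 2 had a region, and their sum was higher at 24 h in every strain, from 3.52 to 6.02 tags in C57, 1.18 to 21.4 in PWK and 13.1 to 46.0 in SPRET. The part of these cells in the results was not tested.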

How the data were processed

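ChIP-seq was measured in bone marrow-derived macrophages with and without IL-4. According to the study's methods and the submitters' processing notes, Bowtie2 placed the reads on each strain's own genome, positions were moved to mm10, and HOMER counted tags. The authors deposited tables of signal, in tags around open-chromatin centres scaled to 10000000 tags per library, in 1000 bp windows (300 bp for factors at EGR2 sites). The authors also deposited peak lists with a HOMER score, called in replicates and kept by their reproducibility, so each list stands for a group. Comparisons of the authors, where a table held them, were not used, and 4 columns that match no sample were left out.

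The members and gene lists were chosen with earlier results of these data known. Regions of C57 were paired with the nearest centre within 500 bp in each other strain, each region being used once. limma (3.58.1, R 4.3.3) was fitted to log2(tags + 1), with a trend, on all regions of a table, and p-values were adjusted by Benjamini-Hochberg at 0.05. Tests were two-sided. Pol II was fitted over all strains and times together, and the mean of 5 strains, each strain and any difference between strains were contrasts. Of 4465742 values, 100% gave whole reads within 0.1 read when multiplied by the library total, and edgeR (4.0.16) and DESeq2 (1.42.0) were run on these recovered reads as an alternative. The limma step was tested on simulated data.

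Named regions were, for each listed gene, the member nearest its start within 100 kb, the 5 members with the highest lowest fold over strains, the 5 with the largest Pol II rise, the 3 nearest the threshold on each side, and the 3 with the largest genotype fall. The result for 1 listed gene is not reported here. Motifs were searched on both strands within 100 bp of the centre in mm10. Of regions annotated as promoters, 86.8% lay within 1 kb of a gene start of the annotation used, against 3.45% of intergenic ones, which was the check of the build.

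None of 88 replicate pairs held identical values, and all differed by more than counting noise (chi-square per degree of freedom 1.41 to 20.0). Same-numbered libraries deviated together for Pol II (r from 0.128 to 0.529 in 13 pairs of deviations over regions), for H3K4me2 in strains (0.111 to 0.387, 10 pairs) and for H3K4me2 in genotypes (0.115 to 0.159, 4 pairs). With 2 libraries in each group, replicates 1 and 2 must give the same r, so such pairs are not independent. The main fits held no term for the replicate number, so counts, errors and p-values not marked as from the block ignore any pairing. For Pol II and H3K4me2 a pairing was read from the data only, though correlations of other data sets overlapped theirs. The fit with the replicate number as a block is given beside the result where it moved a count by over 1.5 times. Alternatives were a pseudocount of 5, a filter on low values, median-ratio scaling, the block, count tests, other limits of the rule and leaving out each library. Python 3.11.15, pandas 2.3.3, scipy 1.17.1 and matplotlib 3.10.9 were used.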

Additional observations from a re-analysis of the deposited data

Results flagged for a closer look

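A single Pol II library stood apart from the other 3 at 3 of 38 named regions in basal C57 cells. It was replicate 1 each time and the highest of the 4. At the Arg1 region it held 24.33 tags, where the next library held 5.62, at the Slc7a2 region 30.57 against 3.21, and at the Rmi2 region 29.95 against 2.41. The gap to the nearest library took 0.934, 0.926 and 0.986 of the group's range, above the 95% limit of Dixon's test for 4 samples, which about 5% of groups exceed by chance. The regions share this library, so the 3 values are not independent. The cause was not tested.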

How the results depend on the processing

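No named region changed the sign of a called value. The split of calls did change with median-ratio scaling for 2 genotype comparisons at 24 h, from 28 lower and 0 higher to 17 lower and 24 higher for H3K27ac, and from 12 lower to 7 lower and 10 higher for PU.1. Of the summary results under an alternative, 415 kept their value within 1.5 times (or their spread) and 80 did not. For named regions, 1315 of the Pol II values and 42 of the genotype values kept direction and call. The Aifm2 intron (Pol II 0.98 ± 0.30, adjusted p = 0.0259, limma) lost its call without BALB 24 h replicate 1, NOD basal replicate 2 or SPRET 24 h replicate 1 (adjusted p = 0.0544, 0.0770 and 0.0525).

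The number of regions was 588 with a fold of 2, 502 with median-ratio scaling, 290 with a pseudocount of 5, 268 at 32 tags, 338 with centres within 250 bp, 286 to 409 without 1 library, and 355 of 30552 with one-way matching, which was chosen after seeing the data. With median-ratio scaling H3K4me2 gave 283 calls, Pol II in BALB 77 and C/EBPβ in the genotypes 0. A pseudocount of 5 gave 65 for Pol II in SPRET, 3 for EGR2 tags, 6 for the genotype response of H3K27ac, 12 for STAT6 and 17 for C/EBPβ. The filter on low values gave 66 for H3K4me3. DESeq2 gave 42 for H3K4me3, 85 and 86 for Pol II in NOD and SPRET, 106 for Pol II at 6 h, 5 for EGR2 tags and 2 for H3K4me2 in the genotypes. edgeR gave 1 for EGR2 tags and 3, 22 and 2 for STAT6, PU.1 and C/EBPβ.

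With the replicate block, Pol II gave 212, 207, 172, 237 and 139 calls in C57, BALB, NOD, PWK and SPRET and 1 difference between strains. These counts of members are given without the share of all regions. For the other data sets no pairing was read from the data, although their pair correlations (0.007 to 0.413) overlapped those of Pol II and H3K4me2. In these the block gave 75 for H3K27ac at 6 h against 1 h and 9 for EGR2 tags. It gave 9 for the genotype response and 1 each for STAT6 and C/EBPβ. The block moved no other count by over 1.5 times.

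Leaving out 1 library gave 306 to 316 calls for mean Pol II, 65 to 164 in C57, 59 to 155 in BALB, 7 to 55 in NOD, 66 to 142 in PWK, 15 to 47 in SPRET, 0 to 0 for the difference between strains and 0 to 156 at 6 h. It gave 166 to 211 for H3K4me2, 141 to 215 for H3K4me3, 0 to 154 for H3K27ac at 6 h against 1 h and 0 to 12 for EGR2 tags. In the genotypes it gave 84 to 97 for H3K27ac in Egr2flfl, 15 to 29 for H3K27ac at 24 h, 0 to 1 for the response (1 without either LyzMCreEgr2flfl basal replicate 2 or 24 h replicate 2), 2 to 8 for H3K4me2, 0 to 1 for STAT6, 0 to 0 for PPARγ, 0 to 12 for PU.1 and 0 to 5 for C/EBPβ. Where 1 library of a group was left, it was assumed to vary like the others.

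With only the 5000 highest peaks, the C57 shares at 24 h were 59.6% for STAT6, 29.9% for EGR2, 19.2% for PPARγ, 14.8% for PU.1 and 15.7% for C/EBPβ. Within 250 bp, motif shares were 51.2% for STAT6, 38.1% for AP-1 and 24.1% for C/EBP, against 12.2, 22.5 and 20.7% of all matched regions. The 3-base spacing, within 100 bp, gave 9.88%. In these alternatives the cause was not tested. At low basal levels a region of 1 or 2 tags rests on a few reads, which limits single values.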

Other observations

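Some genes had several members nearby, and Pol II rose at each of those given here. Inpp5a, which encodes an inositol phosphate phosphatase, had 6 members, chosen for description by this count. Their Pol II log2 changes, averaged over the strains, ran from 1.32 ± 0.17 to 2.96 ± 0.25 (SE, limma, adjusted p = 1.1e-06 and 8.45e-10). At the region with the largest of these changes, H3K27ac in C57 went from 15.9 to 224.5 tags. Itgax, which encodes the integrin chain CD11c, had 3 members with Pol II changes of 2.33 ± 0.21, 2.84 ± 0.25 and 2.93 ± 0.27.

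Fcgr2b, the inhibitory receptor for immunoglobulin G, had 3 members with Pol II changes of 2.08 ± 0.27, 2.13 ± 0.29 and 2.47 ± 0.30 (limma, adjusted p = 1.68e-06, 3.15e-06 and 6.44e-07). At 1 of them H3K27ac in C57 went from 26.3 ± 6.94 to 136.8 ± 97.0 tags (SD, n = 2), and in SPRET from 10.9 ± 8.83 to 32.4 ± 15.3. The spread between the 2 libraries was wide there, and neighbouring members share a locus.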
